A study of Mus musculus with 4 samples.

Results

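Igf2, H19, Meg3, Dlk1, Peg3, Mest and Grb10 are imprinted genes of the mouse, expressed mainly from the copy inherited from one parent, and all are tied to growth. They were listed by name as imprinted genes tied to growth, with earlier results of these data known, and all 7 were found among the 13772 genes measured. The cells were muscle stem cells of wild-type C57BL/6 mice, young or aged, kept for 7 days on polydimethylsiloxane, an elastic silicone polymer, of 2 stiffnesses in DMEM with 10% fetal bovine serum. The 4 groups were aged cells on stiff substrate (29 kPa), aged cells on soft substrate (12 kPa), young cells on stiff substrate (29 kPa) and young cells on soft substrate (12 kPa), called aged stiff, aged soft, young stiff and young soft here. Each group is 1 library of droplet-based single cells, so no difference between groups could be tested against replicates, and the labels give neither the age of the animals nor how many were used. The question of the study, as its design text has it, is how substrate stiffness acts on young and aged muscle stem cells.

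Imprinted genes often lie in clusters in which a coding gene read from the paternal copy sits beside a long non-coding RNA read from the maternal copy. Igf2 and H19 form such a pair on chromosome 7, and Dlk1 and Meg3 form another on chromosome 12. Peg3 also lies on chromosome 7, Mest on chromosome 6 and Grb10 on chromosome 11 (GRCm38.p6). In muscle these genes are known from embryonic and regenerating tissue, where stem cells proliferate, switch on the transcription factor myogenin (Myog) and then build the contractile apparatus. The counts do not separate the 2 parental copies, so nothing below bears on imprinting itself.

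Several of the members carry microRNAs inside their own transcription units, which the 3′ counts of the host do not measure. The mature sequences are shown to identify the small RNAs made from each host, whose levels were not measured here. A further one that the table places in Meg3, mmu-miR-1906, is named only. The sequences come from RefSeq on GRCm38.p6, are written 5′ to 3′, and have the seed, bases 2 to 8, in capitals.
mmu-miR-675-5p, in H19: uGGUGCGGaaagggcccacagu
mmu-miR-675-3p, in H19: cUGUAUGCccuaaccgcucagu
mmu-miR-483-5p, in Igf2: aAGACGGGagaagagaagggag
mmu-miR-483-3p, in Igf2: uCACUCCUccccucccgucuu
mmu-miR-770-5p, in Meg3: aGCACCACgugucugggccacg
mmu-miR-770-3p, in Meg3: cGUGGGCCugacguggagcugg
mmu-miR-335-5p, in Mest: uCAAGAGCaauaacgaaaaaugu
mmu-miR-335-3p, in Mest: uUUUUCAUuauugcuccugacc
None of these shares its seed with another of them. Dlk1, Peg3 and Grb10 held no microRNA hairpin in the same table, whereas Mirg, a further long non-coding RNA of the Meg3 cluster, held 10.

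The promoter window of Meg3 is shown because nearly all Meg3 UMIs came from a small share of the cells, as described further on. It covers chr12:109540746-109541045 on the plus strand (GRCm38.p6, RefSeq), from 250 bases before to 50 bases after the first of the 2 starts listed. Capitals mark the sequence TGACGTCA, known as the cAMP response element, and the stretch TTTATATAAA, which holds the TATA box letters TATAAA on both strands.
Meg3, first start: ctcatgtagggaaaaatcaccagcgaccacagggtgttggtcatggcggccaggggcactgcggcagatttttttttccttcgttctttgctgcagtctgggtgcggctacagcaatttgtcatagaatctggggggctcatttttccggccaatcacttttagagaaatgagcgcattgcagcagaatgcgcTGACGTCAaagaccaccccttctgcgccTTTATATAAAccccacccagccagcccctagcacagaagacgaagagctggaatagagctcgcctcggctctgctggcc
On either strand, TGACGTCA occurred in 1.79% and TATAAA in 13.6% of the 32851 promoter windows of this length in the table. The letters CANNTG, the E-box that myogenic transcription factors bind, were not in this window and were in 72.3% of all windows. The window held 13 CpG dinucleotides, against a median of 7 over all windows. Among the windows of the other members, TGACGTCA occurred only in that of Peg3. H19 had no window in the table. These matches are letters in a window and were not tested as binding sites.

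The libraries held 1738, 1333, 1479 and 1360 cells in aged stiff, aged soft, young stiff and young soft, or 5910 in all. The median cell had 37081, 33315, 28611 and 35606 UMIs (counted RNA molecules) in that order of libraries, and the totals ran from 43961424 to 68223233. Levels are means over cells of CPM, a gene's share of the UMIs of its cell on the scale of the deposited tables, in which a cell's values sum to 1e6 before the log. Set against the label of muscle stem cells, the libraries held a mixture of undifferentiated and differentiated muscle cells. Pax7 averaged 150, 149, 141 and 149 CPM in cells under 1000 CPM of the contractile genes used below. In cells at 50000 CPM or more of them it averaged 3.22, 4.12, 2.91 and 3.64 CPM. All 7 progenitor markers and all 7 contractile genes were detected in each library. Detection alone says little, since all 6 macrophage markers were also detected in aged stiff. Markers of tenocytes summed to 303, 293, 168 and 143 CPM, and those of smooth muscle cells or pericytes to 66.4, 68.1, 84.7 and 82.8 CPM. The tenocyte sum went with the contractile genes and does not count tenocytes. Outside the Meg3-rich cells described further on, it was 385, 405, 303 and 265 CPM at 10000 CPM or more of contractile genes. Outside the Mest-rich cells, also described further on, it was 33.4, 30.6, 38.4 and 33.8 CPM under 1000 CPM of them. Markers of endothelial cells summed to at most 0.202 CPM in any library, those of macrophages to 6.93, 7.02, 1.71 and 1.35 CPM, and those of fibroblasts to 3.65, 4.32, 22.7 and 27.3 CPM. The libraries differed in how far the cells had differentiated. Cells with at least 10000 CPM summed over the contractile genes Acta1, Mylpf, Myl1, Tnnt3, Actc1, Tnnc1 and Ckm made up 76.2% of aged stiff, 69.6% of aged soft, 49.7% of young stiff and 48.3% of young soft. A ratio over all cells therefore mixes the level within a cell state with the share of that state. One cell barcode was shared by 2 libraries, aged stiff and young soft.

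Of the 7 members, 6 reached 20 CPM in at least 1 library, and Dlk1 was all but undetected. On the main scale, the log2 ratio of mean CPM plus 5, none of them differed by 1.5-fold or more over all cells, either between substrates or between ages. In UMIs summed over cells, which weight deep cells more, aged against young was past that fold on stiff substrate for Meg3 (ratio 0.528), Mest (0.611) and Peg3 (0.657) and on soft substrate for Peg3 (0.645). Stiff against soft, the ratio of summed UMIs for Meg3 in aged cells was 0.597. H19 was the one member that was higher on stiff than on soft substrate at both ages and higher in aged than in young cells on both substrates. The other 5 were lower or level in each of these comparisons.

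Igf2, a secreted growth factor that signals through the IGF1 receptor, averaged 19.3 CPM in aged stiff, 22.4 CPM in aged soft, 19.9 CPM in young stiff and 29.7 CPM in young soft. The young soft library stood above the other 3, which lay close together. On stiff against soft substrate the log2 ratio of Igf2, taken on mean CPM plus 5, was -0.17 in aged cells and -0.48 in young cells. The young ratio lay at the 0.182 percentile of the 6034 genes measured in that comparison, and the difference, aged minus young, of 0.31 was not tested. In summed UMIs the ratio was 0.823 in aged cells (95% counting interval 0.758 to 0.893) and 0.696 in young cells (0.639 to 0.758). Aged against young, the log2 ratio of Igf2 was -0.34 on soft substrate. On stiff substrate neither library reached 20 CPM, and the UMI ratio, 0.936, had an interval of 0.858 to 1.02.

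H19, the maternally expressed long non-coding RNA beside Igf2, averaged 2682 CPM in aged stiff, 2204 CPM in aged soft, 2019 CPM in young stiff and 1763 CPM in young soft. It was highest in the aged stiff and lowest in the young soft library, the reverse of Igf2 at the young soft end. Its log2 ratio on stiff against soft substrate was 0.28 in aged cells and 0.19 in young cells, at the 99.4 and 98.7 percentile of the genes measured. Aged against young it was 0.41 on stiff and 0.32 on soft substrate, at the 92.1 and 90.1 percentile.

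Meg3, the maternally expressed long non-coding RNA of the chromosome 12 cluster, averaged 15.7 CPM in aged stiff, 19.4 CPM in aged soft, 24.1 CPM in young stiff and 26.5 CPM in young soft. Both aged libraries were below both young ones. Its log2 ratio, aged against young, was -0.49 on stiff and -0.37 on soft substrate. The counting intervals of Meg3 are too narrow, because its UMIs came from few cells, as described further on. Dlk1, the paternally expressed gene next to Meg3, codes for a membrane protein with EGF-like repeats that is best known for restraining fat cell differentiation. It had 0 UMIs in aged stiff, 1 in aged soft, 14 in young stiff and 16 in young soft. For aged stiff, 0 of 1738 cells allows a share of cells with a UMI of up to 0.173%.

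Peg3, a paternally expressed zinc finger protein also known as Pw1 that marks progenitor cells in several tissues, averaged 383 CPM in aged stiff, 424 CPM in aged soft, 535 CPM in young stiff and 605 CPM in young soft. Both aged libraries were below both young ones, and the soft library of each age was above the stiff one. The log2 ratio, aged against young, was -0.48 on stiff and -0.51 on soft substrate, the lowest of the members on soft. On stiff against soft substrate it was -0.15 in aged cells and -0.18 in young cells.

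Mest, a paternally expressed protein of the alpha/beta hydrolase fold, named for its expression in the embryonic mesoderm, averaged 48.0 CPM in aged stiff, 61.4 CPM in aged soft, 59.0 CPM in young stiff and 69.1 CPM in young soft. It was lower on stiff than on soft substrate at either age, with log2 ratios of -0.32 in aged cells and -0.21 in young cells. Grb10, an adaptor that binds the insulin and IGF1 receptors and dampens their signal, was the steadiest member, at 118 CPM in aged stiff, 118 CPM in aged soft, 123 CPM in young stiff and 129 CPM in young soft. Its aged ratio of UMIs on stiff against soft substrate was 1.00 (0.970 to 1.04). Aged against young its log2 ratio was -0.05 on stiff and -0.12 on soft substrate, and with median-of-ratios scaling it turned to 0.08 and 0.01.

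**Figure D1:**
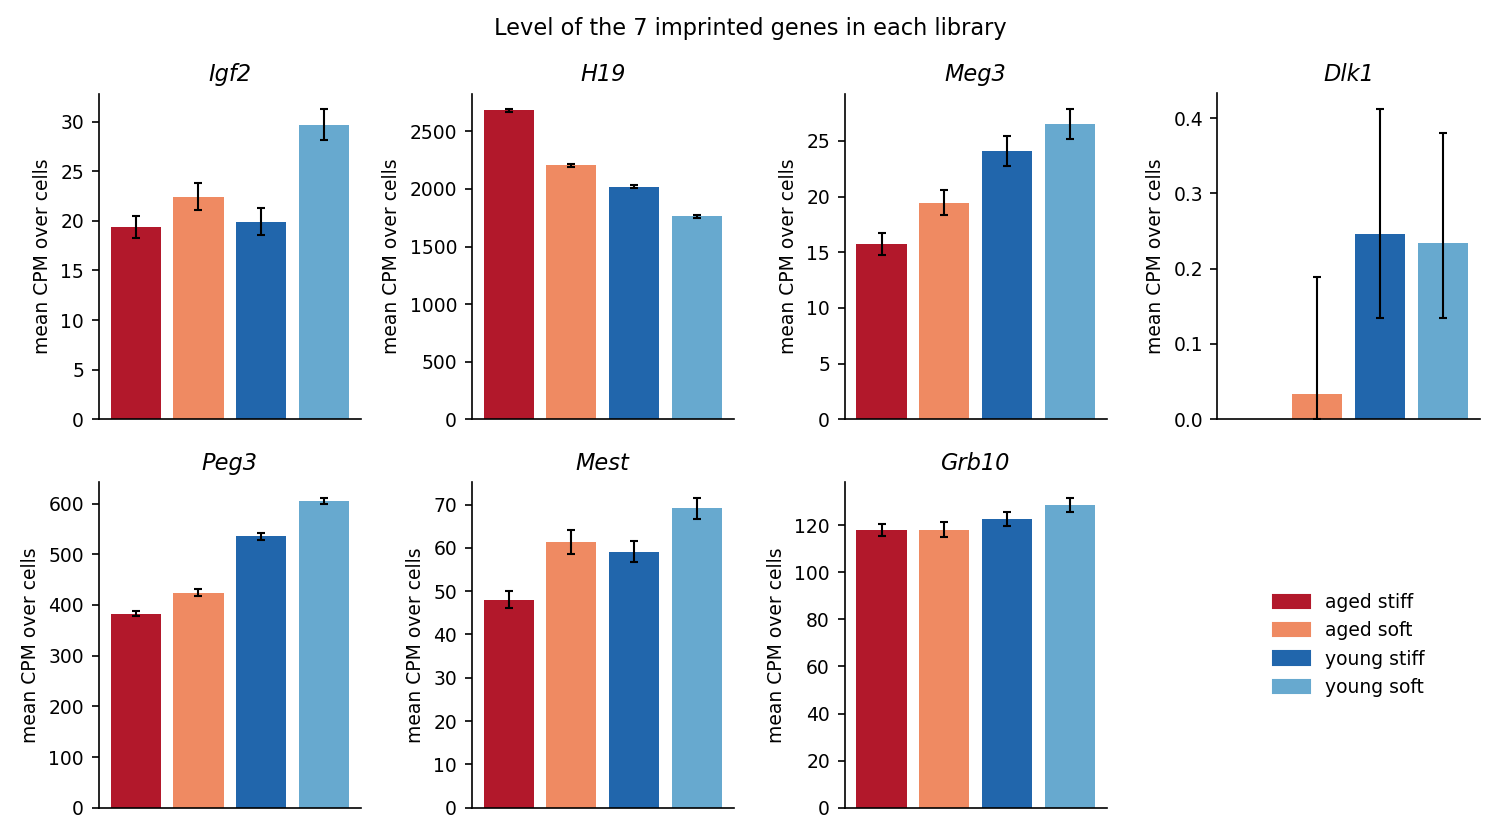
Mean level over cells, in CPM, of each of the 7 members in the 4 libraries, 1 panel a gene, each from 0. Error bars are 95% counting intervals of the gene's UMIs and cover counting error only. H19 is highest in aged stiff (2682 CPM) and Peg3 lowest there (383 CPM), while Grb10 lies between 118 and 129 CPM throughout.

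Few genes of any kind were past 1.5-fold between substrates, and more were between ages. On stiff against soft substrate, 0.216% of the 5552 genes measured in aged cells were past 1.5-fold in either direction (0.126% higher and 0.0901% lower), and 0 of 5 members were. In young cells 0.166% of 6034 genes were (0.0166% higher and 0.149% lower), and 0 of 6 members were. Between ages, 15.5% of 6047 genes on stiff substrate were past 1.5-fold (3.32% higher and 12.2% lower in aged cells), and 0 of 5 members were. On soft substrate 13.6% of 6147 genes were (2.96% higher and 10.7% lower), and 0 of 6 members were. The members' median log2 ratio, aged against young, was -0.27 on stiff and -0.25 on soft substrate, where the median of all genes was -0.13 and -0.12. Between substrates the members' median was -0.15 at either age, and that of all genes was -0.03. H19, Igf2 in young cells and Mest at both ages lay outside the range from the 5th to the 95th percentile of all genes in these comparisons. Of the genes past 1.5-fold between ages, 21.4% on stiff and 21.7% on soft substrate were higher in aged cells. With median-of-ratios scaling, which takes the median of all genes to near 0 (0.01 on either substrate), these shares were 44.8% and 42.6%. The 4 comparisons share libraries, each library serving in 2 of them.

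**Figure D2:**
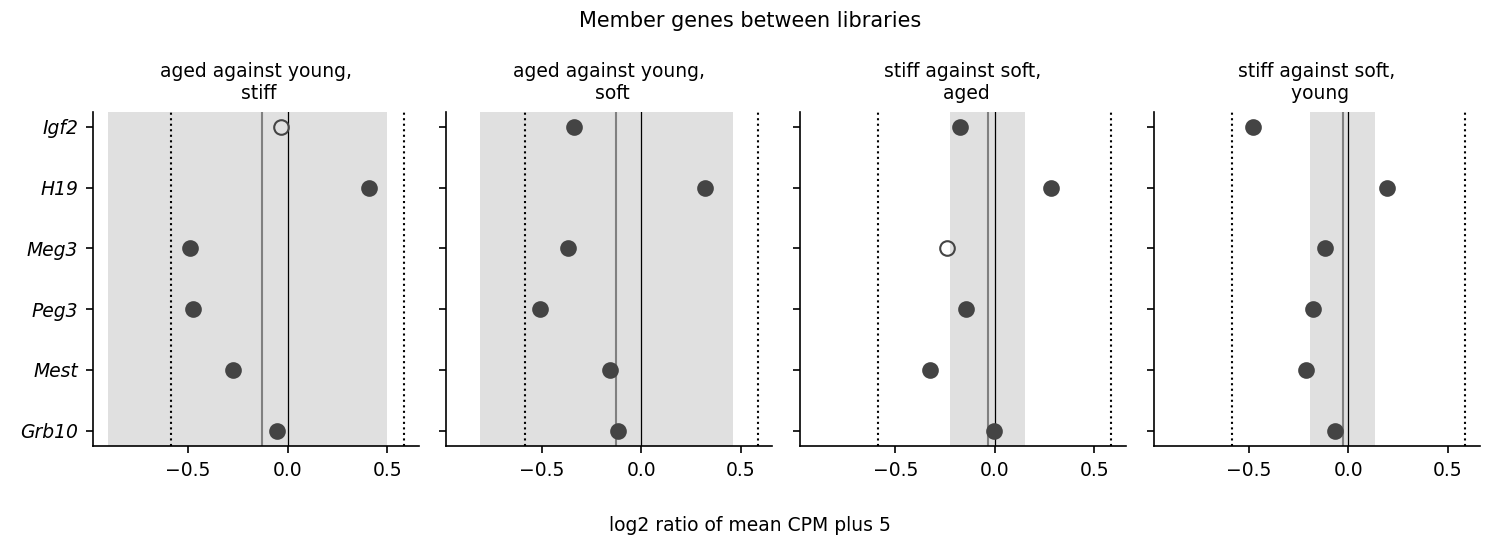
Log2 ratio of mean CPM plus 5 for 6 members in the 4 comparisons, from aged against young on stiff to stiff against soft in young cells. Open points mark genes below 20 CPM in both libraries, the grey band spans the 5th to 95th percentile of all genes measured, the grey line is their median and dotted lines mark 1.5-fold. H19 is the one member right of 0 in all 4 panels, and Igf2 in young cells, at -0.48, lies well outside the band.

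Sorting the cells by their level of Myog separated the members into different courses. In the cells under 100 CPM of Myog, Pax7, the stem cell transcription factor, averaged between 153 and 163 CPM in each library. Grb10 climbed along the 4 Myog bins. In aged soft its first bins were level, with 91.2 and 90.4 CPM. In aged stiff it averaged 87.4 CPM under 100 CPM of Myog, 99.3 CPM from 100 to under 1000, 127 CPM from 1000 to under 3000 and 156 CPM at 3000 or more. In young soft the same bins had 78.6, 103, 168 and 188 CPM. Both upper bins were lower in the aged libraries, with 156 and 160 CPM in the top bin of aged stiff and aged soft against 183 and 188 CPM in that of young stiff and young soft.

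H19 followed a hump. In aged stiff it averaged 1553 CPM in the lowest Myog bin, 3206 CPM in the second, 2969 CPM in the third and 2132 CPM in the highest. In young soft the same bins had 1369, 2376, 2056 and 1663 CPM. The second bin was the peak in all 4 libraries. It held mainly contractile cells, with a median contractile level of 72943 CPM in aged stiff, 66469 CPM in aged soft, 53448 CPM in young stiff and 43920 CPM in young soft.

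Meg3 was near 0 in the lowest Myog bin, between 0.327 and 1.32 CPM, and came mostly from cells with at least 1000 CPM of Myog. In the highest bin it averaged 54.9 CPM in aged stiff, 42.7 CPM in aged soft, 81.8 CPM in young stiff and 50.2 CPM in young soft. From 1000 to under 3000 the order of stiff and soft was turned, with 13.2, 29.5, 21.1 and 58.0 CPM. In summed UMIs the top bin of aged cells had a ratio of 0.863, stiff against soft. Only 8, 7, 16 and 12 cells of the top bins had at least 10 Meg3 UMIs. Peg3 changed little along Myog in the young libraries, between 474 and 643 CPM. In the aged libraries it averaged 572 and 644 CPM in the lowest bin, then 279 and 298 CPM in the second, and 480 and 465 CPM in the highest, for stiff and soft. Mest was highest in the lowest bin in 3 libraries, at 133 CPM in aged stiff, 155 CPM in aged soft and 84.0 CPM in young stiff. In young soft the second bin, with 111 CPM, exceeded the lowest, with 87.6 CPM. Igf2 had its highest level in the top Myog bin in 3 libraries, with 30.7 CPM in aged soft, 29.1 CPM in young stiff and 42.6 CPM in young soft. In aged stiff the lowest bin, with 27.3 CPM, was slightly above the top one, with 25.7 CPM.

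**Figure D3:**
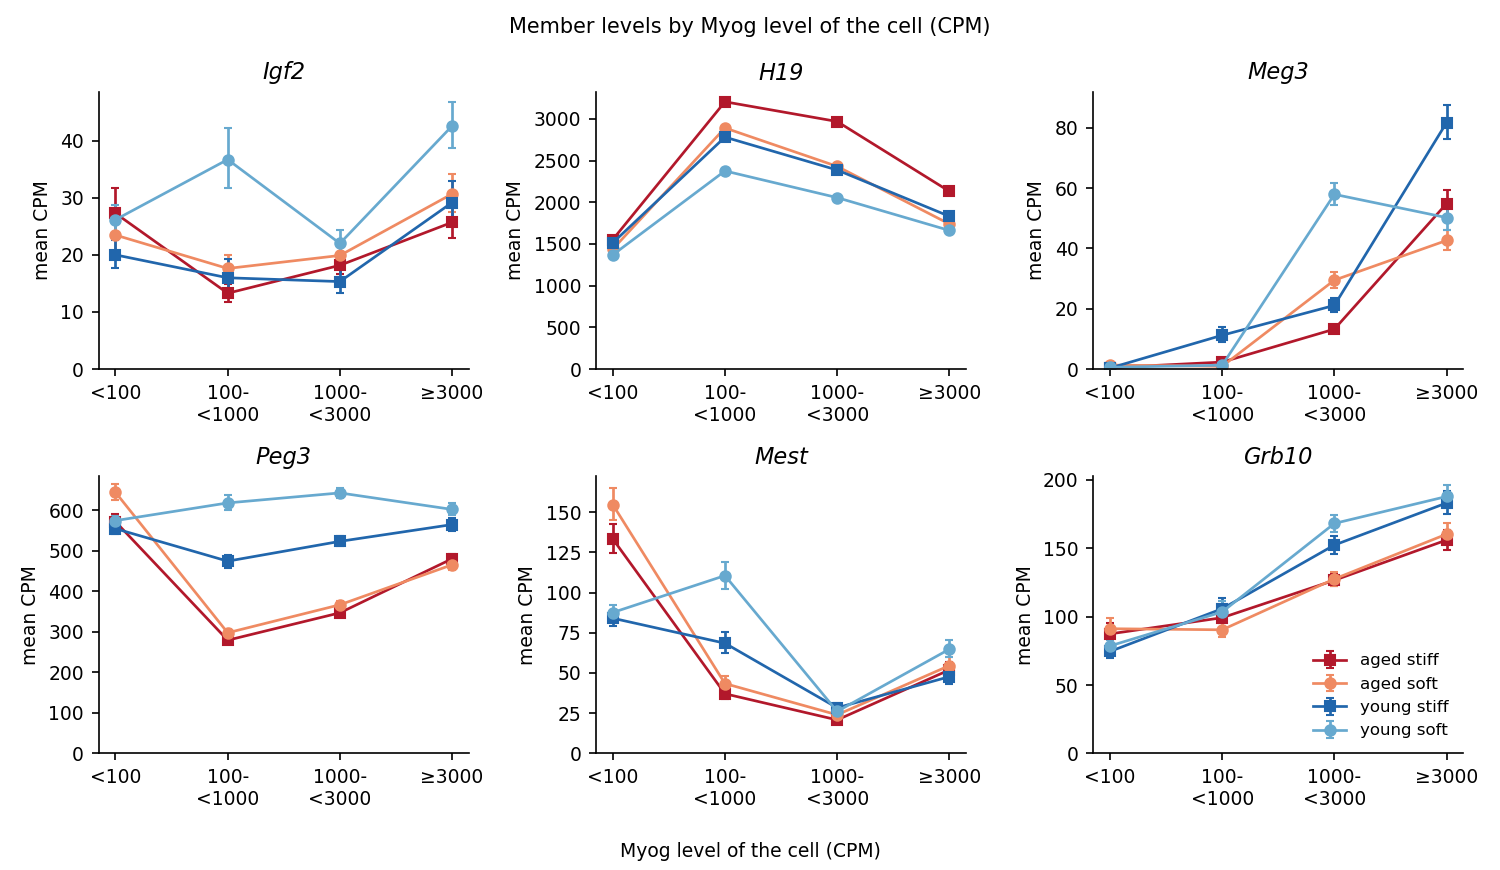
Mean CPM of 6 members in 4 bins of the cell's Myog level (CPM), 1 line a library, with 95% counting intervals. Grb10 climbs from between 74.6 and 91.2 CPM to between 156 and 188 CPM, H19 peaks in the second bin, and Meg3 is near 0 in the lowest.

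Because most cells of the second Myog bin were contractile, the members were also followed along the summed level of the 7 contractile genes. Here Mest showed the steepest course. In aged stiff it averaged 184 CPM in cells under 1000 CPM of contractile genes, 208 CPM from 1000 to under 10000, 16.7 CPM from 10000 to under 50000 and 0.675 CPM at 50000 or more. In young soft the same bins had 117, 202, 19.5 and 0.827 CPM. Copg2, which runs on the opposite strand and overlaps the 3′ end of Mest in the annotation, was at 24.3, 22.7, 23.6 and 25.5 CPM in the highest bin of aged stiff, aged soft, young stiff and young soft. Mest was below 1 CPM in those same cells. Whether the counting used the strand is not given in the sources used here, and any part of Copg2 in the Mest counts was not tested.

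H19 was higher in contractile cells. In aged stiff it averaged 1657 CPM in the lowest contractile bin and 3043 CPM in the highest, and in young soft 1438 and 2067 CPM. Grb10 peaked in the third bin in all 4 libraries, at 153 CPM in aged stiff, 156 CPM in aged soft, 187 CPM in young stiff and 187 CPM in young soft. Peg3 was lower in the most contractile cells of the aged libraries, with 277 CPM in aged stiff and 280 CPM in aged soft in the highest bin and 648 and 686 CPM in the lowest. In young stiff and young soft the highest bin still held 425 and 548 CPM of Peg3. Igf2 was lowest in the highest bin in every library, between 13.7 and 21.3 CPM.

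**Figure D4:**
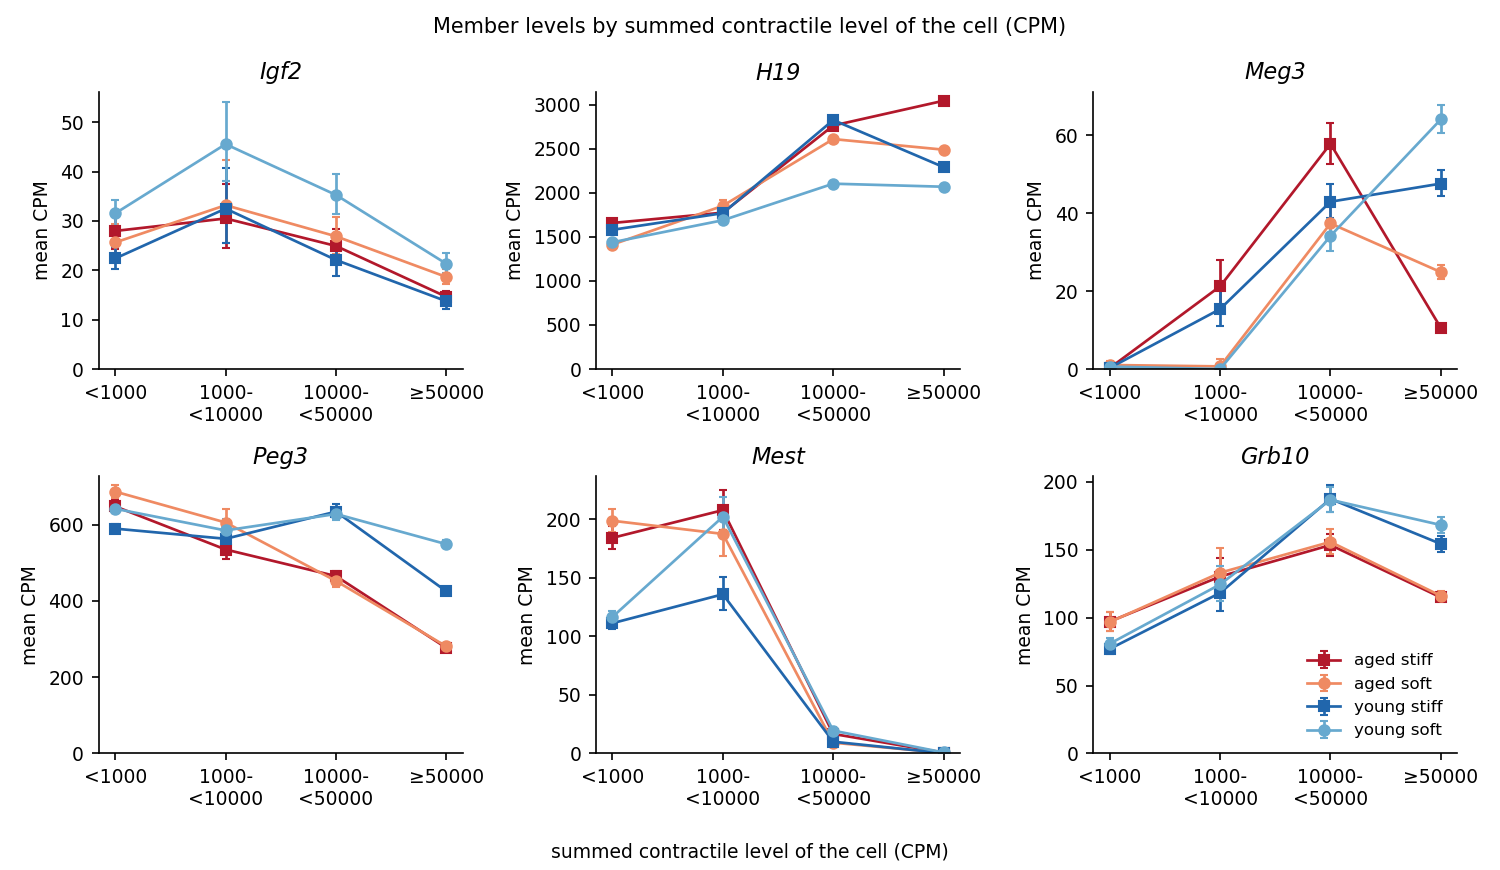
Mean CPM of 6 members in 4 bins of the cell's summed contractile level (CPM), 1 line a library, with 95% counting intervals. Mest drops below 1 CPM in the most contractile cells of all 4 libraries, and Peg3 there separates the aged libraries (277 and 280 CPM) from the young ones (425 and 548 CPM).

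At like contractile level, several age differences looked different from those over all cells. Mest, lower in aged cells when all cells were taken, was higher in aged cells among those under 1000 CPM of contractile genes, at 184 CPM in aged stiff and 199 CPM in aged soft against 111 CPM in young stiff and 117 CPM in young soft. The log2 ratio in that bin was 0.70 on stiff and 0.74 on soft substrate. With the contractile bins of the aged library weighted to the shares of the young one, the ratio over all cells was 0.67 and 0.55, and with Myog bins weighted in the same way 0.24 and 0.24. On stiff substrate the aged library was higher in all 4 contractile bins, whereas on soft substrate it was higher in the lowest bin alone. Along Myog on soft substrate it was again higher in the lowest bin alone (log2 ratio 0.79), with -1.25, -0.10 and -0.23 in the bins above. Along Myog on stiff substrate the aged library was lower in the middle bins, at 37.1 and 20.8 CPM against 68.5 and 28.4 CPM, and higher in the lowest and highest. The stiffness ratio of Mest in aged cells, -0.32 over all cells, was -0.03 with contractile bins weighted.

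For Peg3 the age difference sat in contractile cells. In the highest contractile bin its log2 ratio, aged against young, was -0.61 on stiff and -0.96 on soft substrate. In the lowest bin it was 0.14 and 0.10, on the other side of 0. Malat1, a nuclear long non-coding RNA, was the gene whose level across cells was most like that of Peg3. In the lowest bin, unlike Peg3, Malat1 was lower in aged stiff than in young stiff, at 20846 against 22852 CPM. On soft substrate it was close there, at 20435 CPM in aged and 20557 CPM in young cells. In the highest contractile bin Malat1 had 5997 CPM in aged stiff and 6246 CPM in aged soft, against 8648 CPM in young stiff and 10575 CPM in young soft. Its part in the Peg3 difference was not tested. Usp29, an imprinted neighbour that starts beside Peg3 and runs the other way, had 12.3 and 10.6 CPM in the same cells of aged stiff and aged soft, against 23.5 and 28.6 CPM in young stiff and young soft. Unlike Peg3, it was also lower in aged cells in the lowest contractile bin, with 22.2 and 24.0 CPM in aged stiff and aged soft against 29.0 and 28.7 CPM in young stiff and young soft.

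Grb10 had opposite age ratios at the ends of the contractile range. Aged against young it was 0.32 on stiff and 0.25 on soft substrate in the lowest bin, and -0.41 and -0.52 in the highest. The age ratio of H19 in the highest bin was 0.41 on stiff and 0.27 on soft substrate. In the lowest bin it was 0.07 and -0.03. For Igf2 in aged cells, the log2 ratio, stiff against soft, was 0.11 in the lowest contractile bin and -0.27 in the highest. The value in the lowest bin lay within counting error, with a UMI ratio of 1.06 (0.872 to 1.29). In young cells the log2 ratio was below 0 in every contractile bin, between -0.57 and -0.41, and in every Myog bin, between -0.99 and -0.32.

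The UMIs of Meg3 came from very few cells. A cut-off of at least 10 UMIs in a cell, chosen after the values were seen, was passed by 17 cells of aged stiff, 13 of aged soft, 31 of young stiff and 26 of young soft. These 87 of 5910 cells held 4661 of all 5030 Meg3 UMIs (92.7%). Below the cut-off, 3, 7, 9 and 8 cells had 5 to 9 UMIs, and 1686, 1285, 1412 and 1282 cells had none. The highest single cells had 201, 313, 152 and 299 UMIs, so 1 cell supplied 313 of the 1197 Meg3 UMIs of aged soft.

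Cells with at least 10 Meg3 UMIs were differentiated. Of the 87, 85 had at least 10000 CPM of contractile genes and 81 at least 1000 CPM of Myog. None was found among the cells under 100 CPM of Myog, 0 of 252, 257, 542 and 518. Counting 0 as up to 3, such cells made up at most 1.19%, 1.17%, 0.554% and 0.579% (exact 95% limits 1.45%, 1.43%, 0.678% and 0.710%). Among cells with at least 10000 CPM of contractile genes they made up 1.21% of aged stiff (exact 95% interval 0.692 to 1.96), 1.40% of aged soft (0.748 to 2.38), 4.08% of young stiff (2.77 to 5.78) and 3.96% of young soft (2.60 to 5.74). The aged intervals lie below the young ones on both substrates, in counting error only and with 1 library a group. Among cells with at least 1000 CPM of Myog they made up 1.70% (0.975 to 2.75), 1.81% (0.965 to 3.07), 3.71% (2.44 to 5.39) and 4.01% (2.64 to 5.82). Those intervals overlapped between ages on both substrates. As shares of all cells they were 0.978% of aged stiff (0.571 to 1.56), 0.975% of aged soft (0.520 to 1.66), 2.10% of young stiff (1.43 to 2.96) and 1.91% of young soft (1.25 to 2.79), and these intervals overlapped between ages. With a cut-off of 20 UMIs the shares of all cells were 0.863%, 0.675%, 1.15% and 1.25%. Their median depth was 39488, 38425, 34777 and 44576 UMIs, against 40366, 37398, 32332 and 40548 in the other contractile cells of the same libraries. Doublets were not removed, and Mki67, a marker of cycling cells, had 2 UMIs in all 87 cells together.

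**Figure D5:**
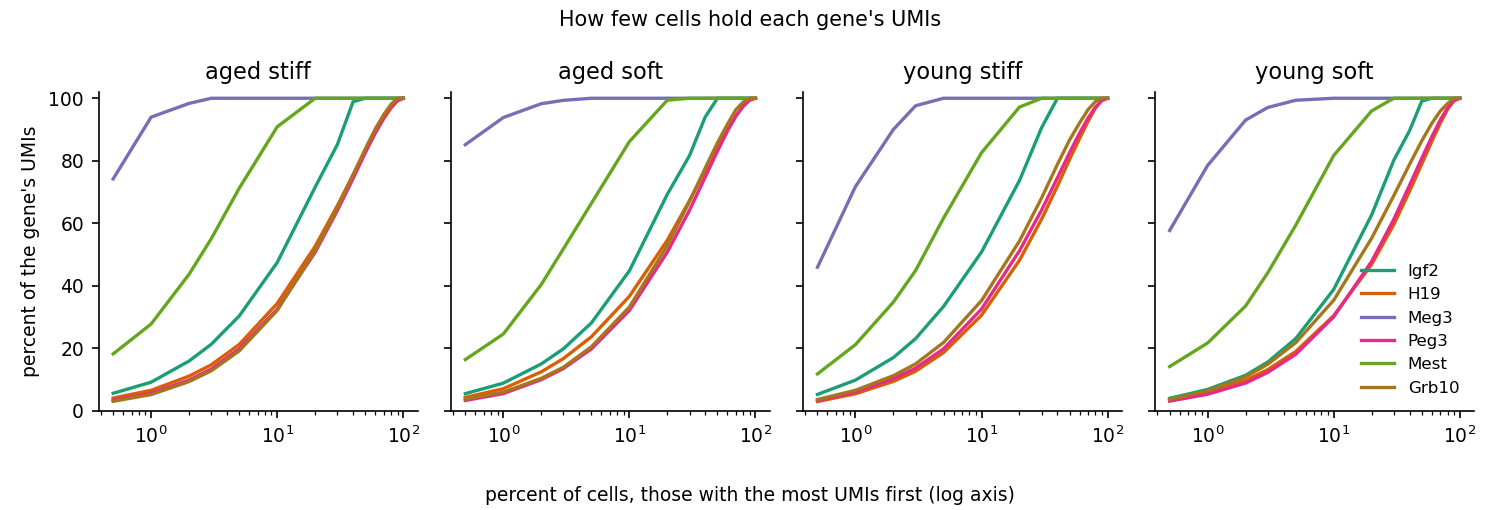
Share of each gene's UMIs (percent) held by the top share of cells (percent, log axis), cells with the most UMIs first, 1 panel a library. The line of Meg3 is above the others, with 94.0% of its UMIs in the top 1% of cells in aged stiff, and that of Mest comes next, with 27.7%. Dlk1 is not drawn.

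Other transcripts of the Meg3 cluster were found in the same cells. Mirg, chosen after its values were seen, had 204 of its 221 UMIs (92.3%) in the 87 cells. Of the 31 Dlk1 UMIs, 22 lay in 3 of them. One cell of young soft had 12 Dlk1, 299 Meg3 and 9 Mirg UMIs. In young stiff, 1 cell had 8 Dlk1 and 90 Meg3 UMIs, another 2 Dlk1, 111 Meg3 and 13 Mirg UMIs, and a further one 3 Dlk1 UMIs with no Meg3. Dio3, the deiodinase gene at the far end of the cluster, also chosen after its values were seen, had 0 of its 52 UMIs there.

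Among the other members, Grb10 averaged 159 CPM in the Meg3-rich cells of aged stiff, 220 CPM in those of aged soft, 209 CPM in those of young stiff and 257 CPM in those of young soft, against 121, 123, 162 and 171 CPM in the other contractile cells. Peg3 was also higher there, at 535, 449, 647 and 784 CPM against 307, 315, 476 and 566 CPM. H19 was lower, at 1997, 2016, 2090 and 1776 CPM against 3005, 2520, 2454 and 2091 CPM. Cdkn1c, an imprinted inhibitor of the cell cycle, had 1135, 1098, 228 and 619 CPM in the Meg3-rich cells and 134, 152, 120 and 147 CPM in the other contractile cells, and it was detected in 45 of the 87. Other cells with at least 1000 CPM of Myog had 250, 252, 169 and 219 CPM of Cdkn1c. All cells with at least 3000 CPM of Myog had 593, 529, 326 and 478 CPM, so the Meg3-rich cells of young stiff lay below that bin. Against the other contractile cells, the direction for each of these genes was the same in the 4 libraries. Against the cells with at least 3000 CPM of Myog it was not for H19, Peg3 and Cdkn1c. That bin had 2132, 1740, 1832 and 1663 CPM of H19, below the Meg3-rich cells except in aged stiff. Its Peg3, at 480, 465, 565 and 602 CPM, was above the Meg3-rich cells in aged soft alone. From 1000 to under 3000 CPM of Myog, H19 had 2969, 2431, 2387 and 2056 CPM, above the Meg3-rich cells in each library.

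Mest was uneven too, within the cells under 1000 CPM of contractile genes. Of the cells under 1000 CPM of contractile genes, those with at least 5 Mest UMIs, again a cut-off chosen after the values were seen, were 29.4% in aged stiff (90 of 306, exact 95% interval 24.4 to 34.9), 27.2% in aged soft (89 of 327, 22.5 to 32.4), 16.9% in young stiff (110 of 652, 14.08 to 19.97) and 19.8% in young soft (122 of 616, 16.7 to 23.2). These 411 cells held 63.7% of the 9466 Mest UMIs, and 68 of them had at least 1000 CPM of Myog. The 5 markers of committed myoblasts (Myod1, Myog, Mymk, Mymx and Cdkn1c) summed to 2015, 1997, 1880 and 1957 CPM in them. In the other cells under 1000 CPM of contractile genes that sum was 1102, 1187, 1141 and 960 CPM. The 7 progenitor markers summed to 943, 983, 670 and 667 CPM in the Mest-rich cells, against 1056, 1025, 807 and 889 CPM in those others. The median depth of the Mest-rich cells was 23432, 24187, 26566 and 32674 UMIs, against 24630, 22503, 23446 and 30114 in the others.

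The share of cycling cells was larger among the Mest-rich cells in each library, and the difference was not tested. At least 300 CPM summed over 8 cell cycle genes was found in 40.0% of them in aged stiff, 39.3% in aged soft, 65.5% in young stiff and 58.2% in young soft. Among the other cells under 1000 CPM of contractile genes the shares were 31.0%, 31.1%, 44.5% and 48.0%. In the cells of aged stiff under 100 CPM of Myog, Mest was level between 81 cycling and 171 non-cycling cells, with a UMI ratio of 1.01 (0.873 to 1.17). Counting intervals of Mest are too narrow as well, since 5% of all cells of aged stiff held 71.2% of its UMIs there. Peg3 averaged 924, 930, 966 and 993 CPM in the Mest-rich cells and 532, 595, 513 and 554 CPM in the others. Plagl1, an imprinted zinc finger protein, had 103, 111, 78.3 and 79.7 CPM in the Mest-rich cells and 44.9, 45.0, 45.0 and 42.8 CPM in the others.

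Across single cells the members were only loosely tied to each other. Over the 21 pairs, the highest mean Pearson r of log2(CPM + 1) within libraries was that of Peg3 and Mest, at 0.28, followed by Igf2 and Peg3 at 0.24. Within Myog bins these were 0.25 and 0.24. The neighbours Igf2 and H19 had a mean r of 0.14, and Meg3 and Dlk1 0.11, over the 3 libraries in which Dlk1 was found. H19 and Peg3 had r values of -0.01 in aged stiff and -0.00 in aged soft, against 0.25 in young stiff and 0.24 in young soft. This contrast was smaller within Myog bins. In the lowest bin r was 0.30, 0.20, 0.39 and 0.38 in aged stiff, aged soft, young stiff and young soft. In the second bin it was -0.02, 0.01, -0.02 and -0.08. Cells of a library share their depth and their mix of states, so these values describe the cells and no test was made.

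Of the 6086 genes searched, those most like each member across cells were named where the mean r reached 0.3. For Mest these were Dpysl3 (0.54), Fscn1 (0.54), Islr (0.53), Igfbp3 (0.52) and Ppp1r14b (0.52), among them the actin bundling protein Fscn1 and the IGF binding protein Igfbp3. For Peg3 these were Malat1 (0.38), Ddx5 (0.38), Prrc2c (0.37), Tcf4 (0.37) and Nedd4 (0.37). The r of Peg3 with Malat1 was 0.55 in aged stiff and 0.53 in aged soft, against 0.24 in young stiff and 0.20 in young soft. For H19 these were Chrna1 (0.35), Hes6 (0.32), Tnnt1 (0.32), Des (0.31) and Tpm1 (0.31). Chrna1 codes for a subunit of the muscle acetylcholine receptor, Des for the intermediate filament desmin, and Tnnt1 and Tpm1 for thin filament proteins. Igf2, Meg3 and Grb10 had no gene at that level.

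Of a list of 39 other imprinted genes, 31 were present, and between substrates none was past 1.5-fold of 13 tested in aged and 15 tested in young cells. Between ages, 3 of 14 on stiff substrate (Usp29 and Zdbf2 lower and Cdkn1c higher in aged cells) and 2 of 15 on soft substrate (Usp29 and Zdbf2, again lower) were, where 15.5% and 13.6% of all genes were. The list's median log2 ratio was -0.00 on stiff and -0.21 on soft substrate. Zdbf2 had 90.5 CPM in aged stiff and 91.8 CPM in aged soft, against 149 CPM in young stiff and 179 CPM in young soft. Cdkn1c had 152 CPM in aged stiff and 154 CPM in aged soft, against 86.6 CPM in young stiff and 115 CPM in young soft. Plagl1 had 19.2, 22.8, 30.8 and 31.4 CPM in aged stiff, aged soft, young stiff and young soft and was not past 1.5-fold.

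The IGF pathway, through which Igf2 acts and which Grb10 dampens, was followed with a list that was written with earlier results of these data known, so its counts are a description and no support. Of 23 listed genes 21 were present. On stiff substrate 6 of 13 tested were past 1.5-fold lower in aged cells (Igf1, Igf1r, Igfbp3, Igfbp4, Igfbp7 and Foxo1) and none higher, where 12.2% of all genes were past it lower. On soft substrate 4 of 13 were lower (Igf1, Igfbp4, Igfbp7 and Foxo1) and Igfbp5 was higher, where 10.7% and 2.96% of all genes were past it lower and higher. Igfbp3, Igfbp4, Igfbp5 and Igfbp7 code for IGF binding proteins, and Foxo1 for a transcription factor that the pathway holds in check. The list's median log2 ratio was -0.50 on stiff and -0.40 on soft substrate. Igf1, the sister growth factor of Igf2, had 14.5 CPM in aged stiff and 16.1 CPM in aged soft, against 30.1 CPM in young stiff and 33.4 CPM in young soft. Igfbp4, a secreted protein that binds IGFs, had 32.9 CPM in aged stiff and 37.7 CPM in aged soft, against 93.1 CPM in young stiff and 83.6 CPM in young soft. Between substrates none of the listed genes was past 1.5-fold at either age, of 12 tested in aged and 13 in young cells. Markers of fibroblasts, 7 of 8 of them in the table, summed to 3.65 CPM in aged stiff and 4.32 CPM in aged soft, against 22.7 CPM in young stiff and 27.3 CPM in young soft, and the share of contractile cells was larger in the aged libraries. The part of either in these differences was not tested.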

How the data were processed

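Single-cell RNA of 4 libraries, 1 a group, was analysed. Per the labels' protocols the chemistry was 10x Chromium for 3′ ends (v3). The submitters' processing notes list Cell Ranger 6.1.2 and Partek, giving no role for either. The genome build, annotation, strand setting and filters are not given in the sources used here. The deposited tables hold log2(CPM + 1) per cell, a unit found from the values. UMIs were worked back from the steps between values, and between 99.87% and 99.91% of the values above 0, up to 1000 UMIs, came out whole within 0.05.

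Cells under 500 genes or over 20% mitochondrial counts were left out, and doublets were not removed. Ratios are log2((mean CPM + 5) / (mean CPM + 5)), taken for genes that reach 20 CPM in 1 or both libraries, which understates differences of low genes. With 1 library a group there is no test. UMI ratios carry exact conditional binomial 95% intervals, levels Poisson intervals and shares exact Clopper-Pearson ones, covering counting error only; a count of 0 allows up to 3. Scripts used Python 3.11.15, numpy 2.4.6, scipy 1.17.1 and pandas 2.3.3 and were tested on simulated data. Neighbours, microRNAs and promoter windows came from RefSeq (GRCm38.p6).

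All 7 members are named, the 5 genes most like each member with a mean r of at least 0.3, and up to 4 genes of each list by absolute ratio. Other genes, among them Mirg, Dio3, Copg2, Igf1r, Igfbp5 and Foxo1, and the cut-offs for Meg3-rich and Mest-rich cells, were picked with the values in view. The members and lists were chosen with earlier results of these data known. Alternatives were other pseudocounts, floors, scalings, thinning, cell filters and bin weights.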

Additional observations from a re-analysis of the deposited data

How the results depend on the processing

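No member was past 1.5-fold in the 4 comparisons, and most alternatives left that count at 0. With UMIs summed over cells in place of the mean over cells, the count was 1 on stiff against soft substrate in aged cells (Meg3), 3 in aged against young cells on stiff (Meg3, Peg3 and Mest) and 1 in aged against young cells on soft (Peg3). With each cell thinned to 2000 UMIs it was 1 on stiff against soft substrate in young cells (Igf2). The cause was not tested. Of 270 ratios of members under alternatives, 258 kept their sign. The other 12 were of Grb10 (7), Mest (3) and Igf2 (2), among them the ratio of Mest, aged against young, which turned to 0.24 on either substrate with Myog bins weighted. A change of pseudocount or floor cannot turn a sign, so part of the 258 was fixed in advance. Of 559 alternative values over all results, 151 moved past the limit set for their kind of result. Under the alternatives, H19 lay between 0.17 and 0.55 in all 4 comparisons. Counts of all genes past 1.5-fold moved more: between substrates, 12 in aged and 10 in young cells became 40 and 43 with thinning, 18 and 20 with no floor, 7 and 6 with a pseudocount of 20, and 7 and 5 with a floor of 50 CPM, and Myog weighting gave 7 in aged cells. Between ages, 938 on stiff and 837 on soft substrate became 570 and 458 with a pseudocount of 20, 549 and 475 with a floor of 50 CPM, 1412 and 1260 with no floor, and 360 and 378 with Myog bins weighted. No paired analysis was possible because each group is 1 library, and no replicate could be left out. Depth limits Dlk1, with 31 UMIs in all, and Igf2, near 20 CPM, while Meg3 is limited by the number of cells that hold it.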

Other observations

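Among the cells under 100 CPM of Myog, cycling and non-cycling cells, split at 300 CPM summed over Mki67, Top2a, Ccnb1, Cdc20, Ube2c, Hmmr, Cenpf and Tpx2, were compared, with no test. H19 averaged 1606 CPM in cycling and 1344 CPM in non-cycling cells of aged soft, 1715 and 1325 CPM in those of young stiff and 1478 and 1255 CPM in those of young soft. In aged stiff the order was turned, with 1484 CPM in 81 cycling and 1585 CPM in 171 non-cycling cells. Mest averaged 221 CPM in cycling and 118 CPM in non-cycling cells of aged soft, 103 and 66.4 CPM in those of young stiff and 97.6 and 77.1 CPM in those of young soft, while in aged stiff both were at 133 or 134 CPM. Grb10 was higher in cycling cells in all 4 libraries, at 101, 104, 75.3 and 85.2 CPM against 80.9, 84.3, 73.9 and 71.7 CPM in aged stiff, aged soft, young stiff and young soft, and the difference in young stiff lay within counting error.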
